A study of Macaca mulatta with 6 samples.

Results

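The genes described here are SREBF1, SREBF2, INSIG1, RNF145 and MLXIPL, which encode regulators of lipid synthesis. They were taken by gene symbol, and every probe set that the platform annotation gives to one of them was kept. That gave 12 of the 52766 probe sets tested: 3 for SREBF1, 4 for SREBF2, 2 for INSIG1, 2 for RNF145 and 1 for MLXIPL. All 12 lay above the reference for dim signal on all 6 arrays. That reference was a log2 level of 4.63, the 95th percentile of the Bacillus control probe sets.

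The samples were cells dispersed from the corpus luteum of rhesus macaques (Macaca mulatta), the gland that a follicle turns into once it has released its egg and that makes progesterone. It was collected on day 12 after the luteinizing hormone peak. From plating, cells on fibronectin in serum-free medium with insulin were given either 1 µM T0901317, a synthetic compound that activates liver X receptors (LXRs), or 0.1% dimethyl sulfoxide (DMSO), the vehicle, for 24 h. Each group had 3 arrays, called biological replicates and paired by number; the labels do not give the number of animals, so p-values measure the spread between these samples. The series asks which genes LXRs act on in these cells.

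SREBF1 and SREBF2 encode the sterol regulatory element-binding proteins (SREBPs), transcription factors made as precursors in the membrane of the endoplasmic reticulum. When sterols are low, the escort protein SCAP carries a precursor to the Golgi, where proteases release its active part; when sterols are high, INSIG proteins hold SCAP and its cargo back. The SREBF1 product mainly drives fatty acid synthesis and the SREBF2 product cholesterol synthesis and uptake. RNF145 is a ubiquitin ligase of the endoplasmic reticulum that in mouse liver acts on SCAP. MLXIPL encodes ChREBP, a transcription factor that responds to glucose and, with its partner MLX, also drives lipid synthesis. In mouse liver, SREBF1, RNF145 and MLXIPL are known targets of LXRs, nuclear receptors that sense oxidised cholesterol. Luteal cells use cholesterol as the raw material of progesterone, and SREBPs help to set its supply.

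The arrays had median log2 levels of 5.54 to 5.71. RNA quality, read as the mean 3′ minus 5′ difference of the actin, GAPDH and EF1a controls, was 1.00, 0.69 and 1.30 in T0901317 replicates 1, 2 and 3, against 0.83, 0.76 and 1.89 in the DMSO replicates. The DMSO array of replicate 3 stands apart by this measure. Listed markers of luteal steroidogenic cells (STAR, HSD3B2, INHA, FDX1 and NR5A1) were above the dim reference on all 6 arrays, while CYP11A1, LHCGR and SCARB1 were not analysed here. All 5 measured macrophage markers and all 4 of fibroblasts were above it too. The same held for all 3 of pericytes and smooth muscle and 5 of 6 of endothelial cells. Of all 14132 named genes, 12264 had a mean level above this reference, so these counts alone do not show which cell types were present. In bulk samples like these, fewer cells of a type and less RNA per cell cannot be told apart.

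In cells given T0901317, SREBF1 rose on 2 of its 3 probe sets and RNF145 on 1 of its 2. No probe set of SREBF2, INSIG1 or MLXIPL passed the test. The RNF145 call was lost in 7 of 12 alternatives to the fit, and that of the brightest SREBF1 probe set in 2. Of the 12 probe sets, 3 rose and 0 fell. Over all probe sets 0.0606% rose (32 of 52766), 0.0246% fell and 0.0853% changed in either direction (45). An unadjusted limma p under 0.05 was reached by the same number, 3, and by 3.72% of all probe sets. The sign was the same in 3 of 3 pairs for 5 of the 12, and for 23.2% of all. The median change of the 12 was 0.06 on the log2 scale, against 0.0044 over all probe sets, and that of the 9 that did not pass was 0.02. Groups did not overlap for the same 3 probe sets that passed; over all probe sets this held for 2.45%.

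**Figure D1:**
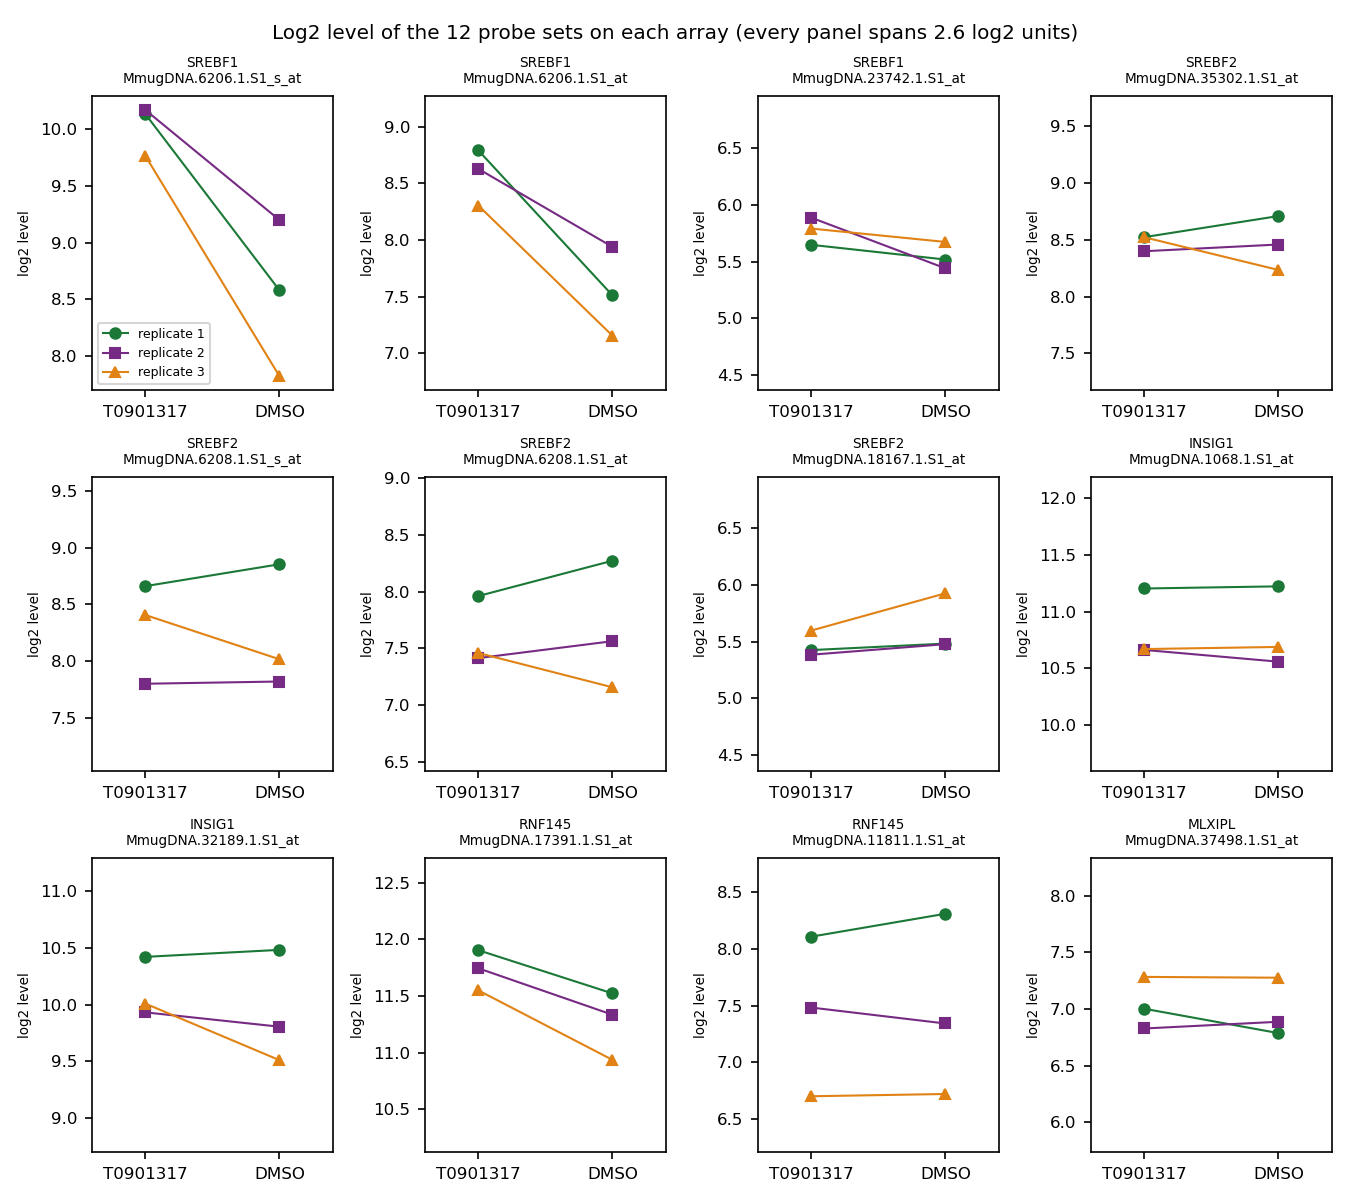
Log2 level (vertical axis, each panel spanning the same number of log2 units) of the 12 probe sets in cells given T0901317 (left) and DMSO (right); symbols are single arrays, lines join the arrays of one replicate number, and there are no error bars. All 3 lines slope down to DMSO for the SREBF1 probe sets, least for the last of them, and for the first of RNF145, whereas those of the 3 brighter SREBF2 probe sets slope both ways.

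The brightest SREBF1 probe set, MmugDNA.6206.1.S1_s_at, had log2 levels of 10.13, 10.17 and 9.76 in T0901317 replicates 1, 2 and 3, against 8.58, 9.20 and 7.82 in the DMSO replicates. The groups did not overlap, and the lowest treated array lay above the highest vehicle array. The change in log2 level was 1.49 ± 0.14 (SE from limma, n = 3 pairs), or 2.81-fold (adjusted p = 0.0015), with a 95% interval of 1.17 to 1.80. Every SE of a change uses limma's spread pooled over probe sets. By change it ranked 9 among all 52766 probe sets.

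A second SREBF1 probe set, MmugDNA.6206.1.S1_at, shares its design stem with the first and is therefore not an independent reading. It had 8.79, 8.63 and 8.30 in T0901317 replicates 1, 2 and 3, against 7.51, 7.94 and 7.16 in the DMSO replicates. All treated arrays were again above all vehicle arrays, and the rise was 1.04 ± 0.12, or 2.05-fold (adjusted p = 0.0070). Over the 6 arrays the levels of the 2 probe sets had a correlation of 0.99. Their changes differed in size by 0.45 on the log2 scale.

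The third SREBF1 probe set, MmugDNA.23742.1.S1_at, did not pass. Its levels were 5.65, 5.89 and 5.79 in T0901317 replicates 1, 2 and 3, against 5.52, 5.44 and 5.67 in the DMSO replicates, so the groups overlapped. The difference was 0.23 ± 0.13 (adjusted p = 1.00), above 0 in 3 of 3 pairs; over all probe sets 12% were above 0 in every pair. Its correlation with the other SREBF1 probe sets was 0.46 with each. It was the dimmest of the 3, and where it lies in the transcript was not analysed here.

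The size of the SREBF1 difference varied between pairs. On the brightest probe set it was 1.55, 0.97 and 1.94 in pairs 1, 2 and 3 (SD 0.49). The largest difference belonged to the replicate with the lowest vehicle level and the smallest to that with the highest. The vehicle level is itself part of the difference, so such an order is partly built in. Treated arrays spanned 0.40 log2 units and vehicle arrays 1.38. A narrower span in treated arrays held for 11 of the 12 probe sets, and for 58% of all probe sets. The vehicle array with the lowest SREBF1 level is also the one with the highest 3′ minus 5′ difference; the part of RNA quality in the size for that pair was not tested. Without replicate 3 the rise was 1.26, and with RNA quality as a covariate 1.37, both past the threshold. Both fits leave little of a probe set's own spread, so these calls rest mostly on limma's spread pooled over probe sets. The same fits called 328 and 206 of all probe sets, against 45 in the main fit. Without the replicate block the SREBF1 call was lost (1.49 ± 0.35, adjusted p = 1.00), and without the variance trend the adjusted p was 0.051.

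**Figure D2:**
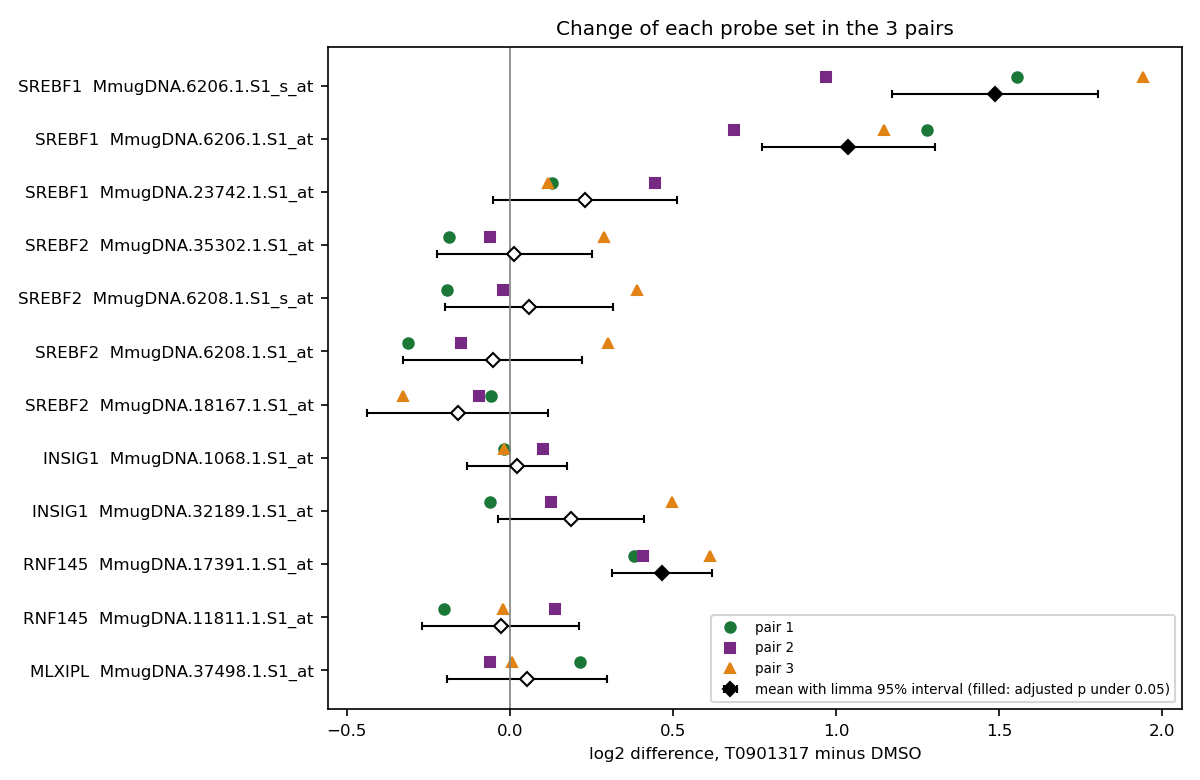
Log2 difference, T0901317 minus DMSO (horizontal axis), of the 12 probe sets (vertical axis); coloured symbols are the 3 pairs, and black diamonds the mean with limma's 95% interval, filled where the adjusted p was under 0.05. The intervals of 2 SREBF1 probe sets and 1 RNF145 probe set lie wholly above 0, and all others include 0.

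SREBF2, the paralogue that drives cholesterol synthesis, had no probe set past the threshold. Its brightest probe set, MmugDNA.35302.1.S1_at, had log2 levels of 8.52, 8.40 and 8.52 in T0901317 replicates 1, 2 and 3, against 8.71, 8.46 and 8.23 in the DMSO replicates. The treated values lay inside the range of the vehicle values. The difference was 0.01 ± 0.11 (adjusted p = 1.00), with a 95% interval of -0.22 to 0.25.

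The next probe sets of SREBF2 gave differences of 0.06 ± 0.12 (MmugDNA.6208.1.S1_s_at) and -0.05 ± 0.13 (MmugDNA.6208.1.S1_at), and the dimmest gave -0.16 ± 0.13 (MmugDNA.18167.1.S1_at; adjusted p = 1.00 for each). The sign depended on the pair. The 3 brighter probe sets were at -0.31 to -0.02 in pairs 1 and 2 and at 0.29 to 0.39 in pair 3. The 3′ minus 5′ measure of RNA quality, T0901317 minus DMSO, was 0.16, -0.08 and -0.59 in pairs 1, 2 and 3. With RNA quality as a covariate the brightest probe set was at -0.09 (adjusted p = 0.84). The dimmest was below 0 in all pairs, as were 11.1% of all probe sets, and its levels had a correlation of -0.62 with those of the brightest over the 6 arrays.

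INSIG1 holds the SCAP complex in the endoplasmic reticulum and is itself switched on by SREBPs. Its brightest probe set, MmugDNA.1068.1.S1_at, had log2 levels of 11.20, 10.66 and 10.67 in T0901317 replicates 1, 2 and 3, against 11.22, 10.56 and 10.69 in the DMSO replicates. The pairs lay close together, with differences of -0.02, 0.10 and -0.02, while replicate 1 was higher than the others in both groups. The mean difference was 0.02 ± 0.07 (adjusted p = 1.00), with a 95% interval of -0.13 to 0.18. That interval does not reach 0.47, the change of the brightest RNF145 probe set.

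The other INSIG1 probe set, MmugDNA.32189.1.S1_at, had 10.42, 9.93 and 10.01 in T0901317 replicates 1, 2 and 3, against 10.48, 9.80 and 9.51 in the DMSO replicates. Its difference of 0.19 ± 0.10 did not pass (adjusted p = 1.00), and the groups overlapped. The pair differences were -0.06, 0.13 and 0.50, so the mean rested largely on pair 3. Without replicate 3 it was 0.03. The levels of the 2 INSIG1 probe sets had a correlation of 0.87 over the 6 arrays.

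RNF145 rose by less than SREBF1, on 1 of its 2 probe sets. MmugDNA.17391.1.S1_at had log2 levels of 11.90, 11.74 and 11.55 in T0901317 replicates 1, 2 and 3, against 11.52, 11.33 and 10.94 in the DMSO replicates. The groups were adjacent without overlap, with the lowest treated array at 11.55 and the highest vehicle array at 11.52. The change was 0.47 ± 0.07, or 1.38-fold (adjusted p = 0.036), with pair differences of 0.38, 0.41 and 0.61. As on the brightest SREBF1 probe set, the largest difference belonged to the pair with the lowest vehicle level, that of replicate 3. On the SREBF1 probe set MmugDNA.6206.1.S1_at the largest was in pair 1 instead (1.28, against 1.15 in pair 3).

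The second RNF145 probe set, MmugDNA.11811.1.S1_at, had 8.11, 7.48 and 6.70 in T0901317 replicates 1, 2 and 3, against 8.31, 7.34 and 6.72 in the DMSO replicates. Replicates differed far more than treatments here: the vehicle arrays spanned 1.59 log2 units and the difference was -0.03 ± 0.11 (adjusted p = 1.00). The RNF145 call was lost in 7 of 12 alternatives and that of SREBF1 in 2. It was lost for RNF145 without replicate 1 (0.51, adjusted p = 0.21), under quantile normalization (adjusted p = 0.067), cyclic loess (0.053) and median centring (0.085), and without the block or the variance trend (1.00 for both). The mean of both probe sets gave 0.22 ± 0.08 (adjusted p = 0.67).

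**Figure D3:**
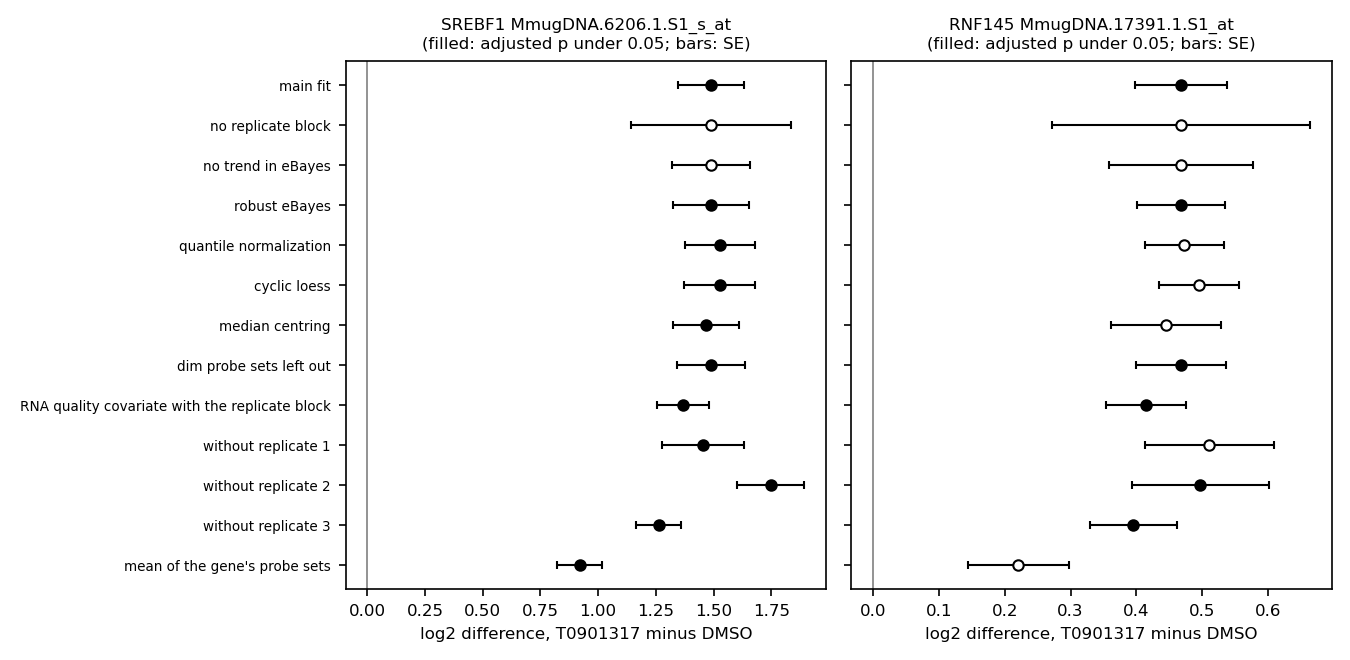
Log2 difference, T0901317 minus DMSO (horizontal axes), of the brightest SREBF1 and RNF145 probe sets as first fitted and under 12 alternatives (vertical axis); bars are limma's SE and filled circles mark an adjusted p under 0.05. SREBF1 stays between 0.92 and 1.75 with 2 open circles, and RNF145 between 0.22 and 0.51 with 7.

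MLXIPL, which encodes ChREBP, was read by MmugDNA.37498.1.S1_at alone. It had log2 levels of 7.00, 6.83 and 7.28 in T0901317 replicates 1, 2 and 3, against 6.79, 6.89 and 7.28 in the DMSO replicates. The groups overlapped, and replicate 3 was the highest in both. The difference was 0.05 ± 0.11 (adjusted p = 1.00), with a 95% interval of -0.19 to 0.30 and pair differences of 0.21, -0.06 and 0.01.

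Differences between the changes of these genes were also taken pair by pair, for 7 comparisons of brightest probe sets. The SREBF1 change exceeded that of SREBF2 by 1.74, 1.03 and 1.65 in pairs 1, 2 and 3 (mean 1.47 ± 0.39, SD). It exceeded that of INSIG1 by 1.47 ± 0.55, that of MLXIPL by 1.43 ± 0.46 and that of RNF145 by 1.02 ± 0.41, in 3 of 3 pairs each. The RNF145 change exceeded that of INSIG1 by 0.40, 0.31 and 0.63. The exact two-sided sign-flip permutation test gave p = 0.25 for each of these, the smallest value that 3 pairs allow, so these differences cannot pass at 0.05 by that test. The INSIG1 and SREBF2 changes differed by 0.17, 0.16 and -0.31, with no common sign (exact permutation p = 1.00).

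**Figure D4:**
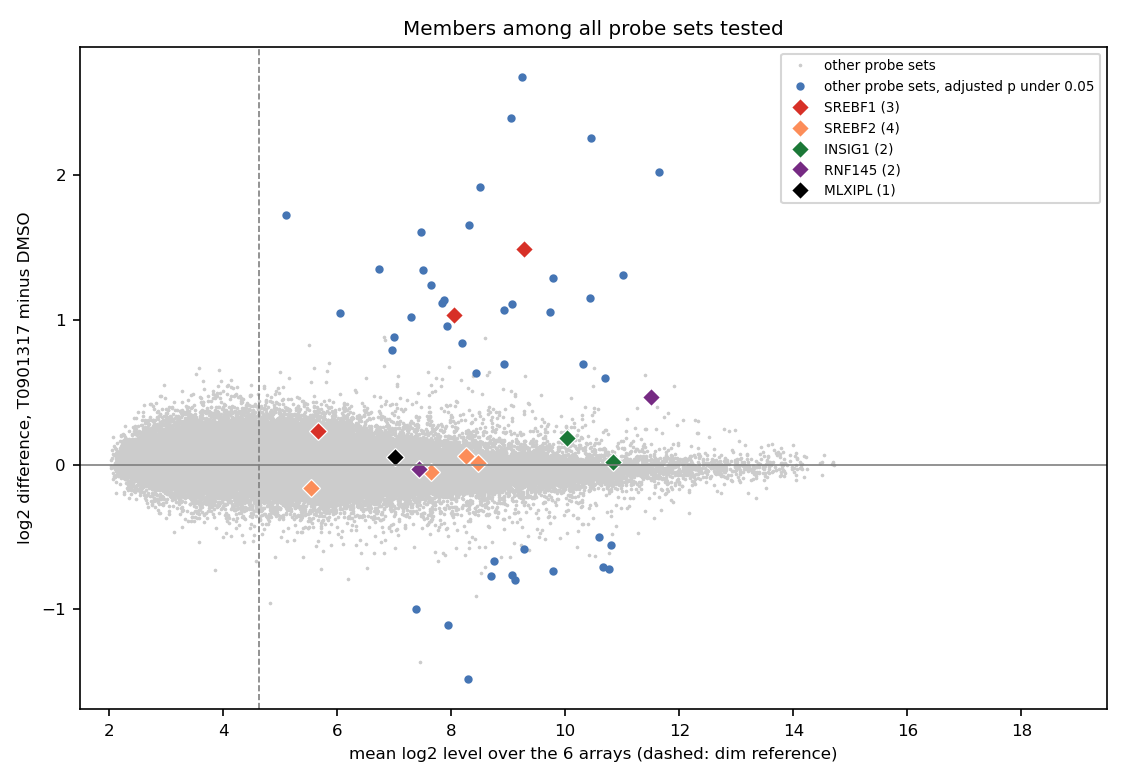
Mean log2 level over the 6 arrays (horizontal axis) and log2 difference, T0901317 minus DMSO (vertical axis), of all 52766 probe sets (grey), those past the threshold (blue) and the 12 described here (diamonds, number per gene in brackets); the dashed line is the reference for dim signal. Both called SREBF1 diamonds lie above the grey band at 1.49 and 1.04 and the RNF145 one at 0.47, while the other 9 lie within it.

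Genes of the machinery that moves and cuts SREBPs did not pass. Of 9 listed, 5 were measured under a name; 0 rose, 0 fell and 0 had an unadjusted limma p under 0.05. SCAP, the escort, had mean log2 levels of 8.71 with T0901317 and 8.66 with DMSO, a difference of 0.05 ± 0.09. INSIG2, the paralogue of INSIG1, had 0.05 ± 0.09 and MBTPS2, the site-2 protease, -0.11 ± 0.10. The list's median was -0.03, and that over all 14132 named genes -0.02.

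Genes of protein degradation in the endoplasmic reticulum that sterols can trigger did not pass either. Of 10 listed, 6 were measured, with 0 called in either direction and 0 at an unadjusted limma p under 0.05. The median was -0.04. Those of lowest p were SYVN1, a membrane ubiquitin ligase (-0.14 ± 0.09), and AUP1, which recruits the ubiquitin-conjugating enzyme UBE2G2 (-0.08 ± 0.08).

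Targets of the SREBF2 type lay mostly below 0. Of 24 listed, 15 were measured: 1 fell, 0 rose and 14 lay below 0 (93.3%, against 58.6% of all named genes). An unadjusted limma p under 0.05 was reached by 7 of the 15, all lower, and by 2.41% of all named genes in that direction. The median was -0.20. FDFT1, the squalene synthase, fell by 0.55 log2 units (SE 0.08, adjusted p = 0.028), to a mean of 10.53 with T0901317, against 11.08 with DMSO. Its other probe set had -0.59 ± 0.12 (adjusted p = 0.19). SQLE, which oxidises squalene, had -0.54 ± 0.13 (adjusted p = 0.47), and its dimmer probe set had -0.95, -0.48 and 1.08 in pairs 1, 2 and 3. The number of genes that fell was 4 with the RNA quality covariate, 3 without replicate 3 and 2 without replicate 2. It was 0 without replicate 1, without the block or the trend, and under quantile normalization and cyclic loess. The FDFT1 call was lost without replicate 1 (adjusted p = 0.37), under quantile normalization (0.071) and under cyclic loess (0.053). INSIG1 is also under SREBP control but was not in this list. The FDFT1 change minus the INSIG1 change was -0.70, -0.49 and -0.54 in pairs 1, 2 and 3 (exact sign-flip permutation p = 0.25, the smallest possible).

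Targets of the SREBF1 type split. Of 18 listed, 14 were measured: 2 rose, 0 fell and 12 did not pass, with 8 of the 14 below 0 and a median of -0.01. These counts use each gene's brightest probe set. An unadjusted limma p under 0.05 was reached by 3 of the 14, all higher, and by 1.32% of all named genes in that direction. ACACA, which makes malonyl-CoA, rose to 8.61 with T0901317, against 7.78 with DMSO (0.84 ± 0.10, adjusted p = 0.0059). The dimmer ACACA probe set, MmugDNA.16299.1.S1_at, had 0.18 ± 0.12 and did not pass. FASN, which builds palmitate from malonyl-CoA, rose to 8.75 with T0901317, against 8.12 with DMSO (0.63 ± 0.09, adjusted p = 0.036). MID1IP1, which promotes the activity of acetyl-CoA carboxylase, gave different readings on a pair of almost equally bright probe sets. One (MmugDNA.36610.1.S1_at) rose, to 9.28 with T0901317, against 8.59 with DMSO (0.69 ± 0.09, 1.62-fold, adjusted p = 0.016), and the marginally brighter one, which the counts use, had -0.06 ± 0.09. FADS2, a fatty acid desaturase, had 0.39 ± 0.11 (adjusted p = 0.85), with 0.24, 0.22 and 0.69 in pairs 1, 2 and 3. ACLY, which supplies acetyl-CoA, had -0.05 ± 0.07 and ELOVL6, a fatty acid elongase, -0.17 ± 0.10 (adjusted p = 1.00 for both). These last 4 genes are named with their values known. The FASN call was lost without replicate 1 (adjusted p = 0.16), without replicate 2 (0.075) and under median centring (0.056). SCD was not analysed here. Without the replicate block 0 genes of any list passed. Without the variance trend ACACA (0.080), FASN (0.33), FDFT1 (0.68) and APOE, a direct LXR target (0.38), did not.

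For ChREBP, 9 of 12 listed partners and targets were measured; 0 rose and 0 fell, 1 had an unadjusted limma p under 0.05, and the median was -0.03. The partner MLX had a difference of 0.02 ± 0.09 and its relative MLXIP one of 0.07 ± 0.12. TXNIP, a glucose-induced target, had mean log2 levels of 10.66 with T0901317 and 10.82 with DMSO, a difference of -0.16 ± 0.07 that did not pass (adjusted p = 1.00). It was -0.16, -0.16 and -0.17 in pairs 1, 2 and 3, whereas its other 4 probe sets were below 0 in pairs 1 and 2 and at 0.20 to 0.71 in pair 3, with means of -0.11 to 0.12. GPD1, a target in glycerol metabolism, had 0.22 ± 0.12 (adjusted p = 1.00).

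Among receptors and cofactors of SREBP action, 12 of 15 listed genes were measured, 1 rose and 0 fell, with a median of -0.02. The riser was NR1H3, which encodes LXR alpha (1.24 ± 0.11, adjusted p = 0.0011). As a check of the treatment, 4 of 5 measured direct LXR targets rose and 0 fell. MYLIP, a ubiquitin ligase, changed most, by 2.39 ± 0.11 (adjusted p = 4.9e-06), and the others that rose were LPCAT3, APOE and NR1H3. ABCA1 did not pass (0.47 ± 0.13, adjusted p = 0.88), and ABCG1 was not analysed here. On their brightest probe sets both SREBF1 and MYLIP had their smallest difference in pair 2, where MYLIP had 2.04 against 2.49 and 2.65 in pairs 1 and 3. The same held for MmugDNA.6206.1.S1_at of SREBF1 and MmugDNA.3424.1.S1_s_at of MYLIP. On MmugDNA.28468.1.S1_at of MYLIP the smallest was in pair 1 (0.77, against 0.96 and 1.43 in pairs 2 and 3). On the dimmest SREBF1 probe set pair 2 had the largest difference (0.45). Over all named genes by brightest probe set, 0.177% were called. APOE was not past the threshold without replicate 1 (adjusted p = 0.057) or without the variance trend (0.38).

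**Figure D5:**
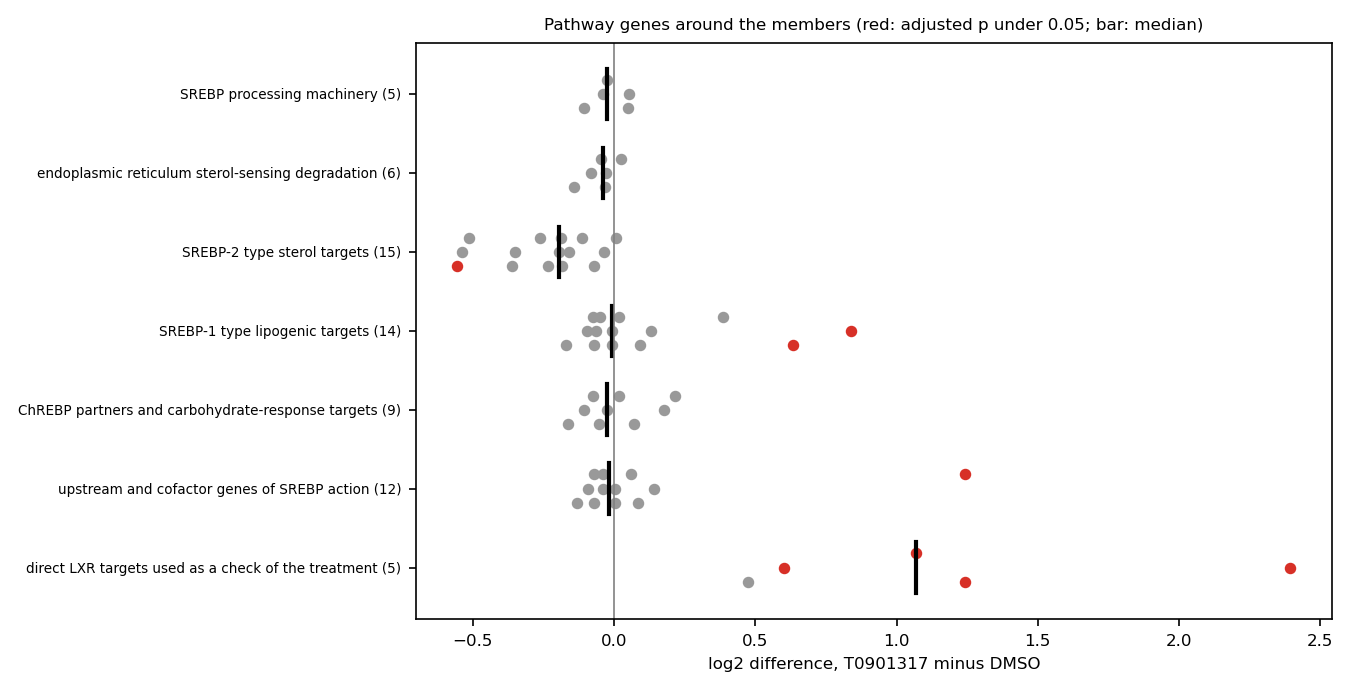
Log2 difference, T0901317 minus DMSO (horizontal axis), of 7 pathway lists (vertical axis, with the number of measured genes); points are genes by their brightest probe set, red where the adjusted p was under 0.05, black bars are medians, and vertical scatter within a list has no meaning. Of the 15 targets of the SREBF2 type 14 lie left of 0, while 8 of the 14 of the SREBF1 type lie left of 0, with ACACA and FASN in red on the right.

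Patterns of level over the 6 arrays were compared by Pearson's r with 12263 other named genes above the dim reference. The arrays share treatment, replicate and RNA quality, and with 6 points such values are a description only. For SREBF1 the nearest gene was LPCAT3, an enzyme of phospholipid remodelling (r = 0.98), which rose by 1.07 ± 0.09, followed by HES2 (0.97) and PKN3 (0.96). HES2 and PKN3 had differences of 0.12 and 0.07 that did not pass. For RNF145 they were PPIP5K2 (0.99), TMEM135 (0.98) and CYP1B1 (0.98). On their brightest probe sets PPIP5K2 rose by 1.14 ± 0.14 and TMEM135 by 1.35 ± 0.16 (adjusted p = 0.0087 for both). Any other probe sets of these genes are not given here.

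The levels of SREBF1 and RNF145 themselves had a correlation of 0.89, and those of SREBF1 and INSIG1 one of 0.03. The nearest genes to SREBF2 were BOC, BAG6 and CYP2A24 (r = 0.99 each), and those to INSIG1 were PPAT (1.00), NOL8 and TUBA4A (0.99 each). MLXIPL was nearest to USF3, LOC702313 and CCDC172 (1.00 each). None of these 9 genes passed the test (adjusted p = 1.00 for each).

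Markers of other cell types also differed between arrays, most between replicates. The summed level of 5 macrophage markers was 11.05, 12.60 and 12.63 on the log2 scale in T0901317 replicates 1, 2 and 3, against 11.20, 12.76 and 12.67 in the DMSO replicates. Within pairs this sum was lower with T0901317 in all 3, while SREBF1 and RNF145 were higher. The median of the same 5 markers was lower in pairs 1 and 3 but higher in pair 2 (10.10 with T0901317, 10.05 with DMSO). The summed level of 6 endothelial markers was 9.93, 10.49 and 10.08 in T0901317 replicates 1, 2 and 3, against 9.78, 10.34 and 9.69 in the DMSO replicates, so it was higher with T0901317 in all 3 pairs, as were SREBF1 and RNF145. None of the 6 endothelial markers passed (0 rose, 0 fell; 1 had an unadjusted limma p under 0.05), and KDR was below the dim reference on every array. The part of cell composition in the SREBF1 and RNF145 changes was not tested. Pericyte and smooth muscle markers were lower with T0901317 in all 3 pairs, with summed levels of 9.87, 9.34 and 9.17 against 10.22, 9.43 and 9.50 in DMSO replicates 1, 2 and 3; 0 of 3 passed. Blood cell markers were lower in all 3 pairs too, at 9.06, 9.87 and 10.47 against 9.17, 9.96 and 10.78, and 0 of 5 passed. An unadjusted limma p under 0.05 was reached by 2 of 3 pericyte and smooth muscle markers, 2 of 5 blood cell markers and 2 of 5 macrophage markers, all lower with T0901317. Over all named genes 2.41% reached it lower and 1.32% higher. Among the markers counted, PPBP of the blood cells had a mean of 4.15, below the dim reference. CSPG4 of the pericytes was lower on its brightest probe set, but its dimmer probe sets were at 0.23 and 0.03. The 5 luteal markers had summed levels of 12.02, 12.55 and 12.14 with T0901317, against 12.20, 12.51 and 12.01 in the DMSO replicates. The direction of this sum differed between the pairs. The median of the same 5 markers, which was the level of INHA on every array, was lower with T0901317 in all 3 pairs. Of the 5 markers, 4 had a mean difference below 0, 0 passed and 0 had an unadjusted limma p under 0.05.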

How the data were processed

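RNA of rhesus macaque luteal cells was read on 6 arrays, 3 per group. The values deposited by the authors are log2 levels made with RMA, per the submitters' processing notes, which name no version. RMA removes background, equalises the distributions of arrays and combines the probes of a probe set, and whether all 6 arrays went through it together is not stated. The medians differed between arrays, so scaling was varied.

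Control probe sets (99) were left out, which left 52766. The platform annotation named 24956 of them with 1 gene, 361 with several and 27449 with none; 24616 of the 24956 gene numbers were in the RefSeq gene table, all 5 genes described here included, and 0 symbols changed.

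The difference T0901317 minus DMSO was fitted over all 52766 probe sets with limma 3.58.1 in R 4.3.3, with the replicate number as a block and a variance trend. Two-sided p-values were adjusted by Benjamini-Hochberg over all probe sets, with a threshold of 0.05. The pairing comes from the series' design text. Deviations from the group means correlated at 0.66, 0.81 and 0.83 between arrays of the same number, and at -0.72 to 0.20 otherwise. At most 0.328% of values were identical between any 2 arrays. The number of arrays limits the precision.

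A gene was represented by its brightest probe set. From each pathway list the text names members past the threshold, or else the 2 of lowest p, plus a fixed set around SREBP action; further genes are named only where a count turns on them. The 5 genes, the lists and the tests were chosen with earlier results of these data known. The fit was also run on simulated data, and the outcome is not reported here. The alternatives tried were no block, no trend, robust variances, 3 scalings, a filter on dim probe sets, an RNA quality covariate, each replicate left out and the mean of a gene's probe sets.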

Additional observations from a re-analysis of the deposited data

How the results depend on the processing

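Counts moved with the model. The 45 probe sets past the threshold became 0 without the replicate block, 11 without the variance trend, 27 under quantile normalization and under cyclic loess, and 206 with RNA quality as a covariate. The 3 called among the 12 probe sets became 0 without the block and 0 without the trend; the 7 called pathway genes became 0 without the block and 3 without the trend. Leaving out 1 replicate gave 35 to 328 probe sets, 2 to 3 of the 12 and 4 to 9 pathway genes. SREBF1 (1.49) lost its call without the block (adjusted p = 1.00) and without the trend (0.051), and ran from 1.26 to 1.75 when a replicate was left out; RNF145 (0.47) lost its call in 7 of 12 alternatives, with 0.47 under quantile normalization, 0.50 under cyclic loess, 0.44 with median centring, 0.22 as the mean of its probe sets and 0.40 to 0.51 when a replicate was left out. Reversed values all belong to differences that did not pass before or after. For the brightest SREBF2 probe set they were -0.0085 with median centring, -0.092 with the RNA quality covariate and -0.035 as the mean of its probe sets, and -0.12 to 0.11 when a replicate was left out. For MmugDNA.6208.1.S1_s_at it was -0.071 with the covariate and -0.11 to 0.19 when a replicate was left out, and for MmugDNA.6208.1.S1_at -0.23 to 0.077. The brightest INSIG1 probe set was at -0.00086 with median centring and at -0.019 to 0.042 when a replicate was left out. The dimmer RNF145 probe set had 0.0087 under quantile normalization and -0.11 to 0.060 when a replicate was left out, and MLXIPL -0.026 to 0.11. The median change of all probe sets moved by less than 0.1 under every scaling. The cause of these changes was not tested. With 3 pairs a small change can be missed, so a difference that did not pass is not shown to be absent.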
